A study of Homo sapiens with 14 samples.

Results

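Genes in which A-to-I editing is known to change the encoded protein were followed through the 3 assays of a study of ADAR1 knockdown (KD). They were AZIN1, COPA, COG3, BLCAP, FLNA, NEIL1, CDK13, IGFBP7 and CYFIP2, chosen by gene symbol from a table of RPKM values (reads scaled to the length of the transcript and the number of mapped reads), and all 9 of them had a row among its 21574 rows. Cells labelled as HepG2, a line from a human hepatocellular carcinoma, had been stably transfected, by the labels, with scrambled siRNA (control) or siRNA against ADAR1 (KD). Poly-A RNA of both was probed in vitro by PARS-seq, which reads where S1 nuclease cuts unpaired bases and where RNase V1 cuts paired bases, with 2 libraries per nuclease and condition, and the cells were also profiled by RNA-seq, with 1 library per condition, and by Ribo-seq, which sequences ribosome-protected fragments, with 2 libraries per condition. In all, 14 samples gave 10 columns of RPKM, since each of the 4 PARS-seq columns is the authors' mean of an S1 and a V1 library. The siRNA left part of the ADAR transcript in place, all samples came from a single cell line, and the level of editing itself is not among the values analysed here.

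ADAR enzymes deaminate adenosine to inosine in double-stranded RNA, and inosine is read as guanosine when the mRNA is decoded. In most genes edited sites lie in noncoding repeats, but at a small number of sites the exonic adenosine pairs with a nearby, often intronic, sequence and editing replaces an amino acid. Such recoding was first described in transcripts of neuronal receptors and channels, and it is also known in genes that are widely transcribed, among them those described here.

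The codons that hold the known sites are shown because they are what editing would alter in these transcripts. Each is read in the sense of the mRNA from the human genome build GRCh37 (hg19), in lower case, with the codon or codons that hold an edited adenosine in capitals. The 11 edited adenosines in these 9 stretches were placed by codon number in the coding sequence of the gene's canonical transcript in the GENCODE annotation. That each lies in a coding exon follows from this placement. The genes themselves span chr1:160258384-160313356 (COPA), chr13:46039033-46110836 (COG3), chrX:153576892-153603002 (FLNA), chr15:75639296-75649456 (NEIL1), chr7:39989720-40139179 (CDK13), chr4:57896939-57976551 (IGFBP7), chr20:36120874-36156333 (BLCAP) and chr5:156693089-156822603 (CYFIP2).
COPA, exon 6 of 33, isoleucine to valine, chr1:160302239-160302265, minus strand: cagactgtgcgcgtttgggatATTtct
COG3, exon 17 of 23, isoleucine to valine, chr13:46090359-46090385, plus strand: accattaaggaaATTtccctggacctc
FLNA, exon 43 of 48, glutamine to arginine, chrX:153579949-153579975, minus strand: cgccgcctcactgtttctagccttCAG
NEIL1, exon 6 of 10, lysine to arginine, chr15:75646082-75646108, plus strand: ggcAAAggctacgggtcagagagcggg
CDK13, exon 1 of 14, lysine to arginine and glutamine to arginine, chr7:39990523-39990552, plus strand: ggcAAGaggcgcgcaggagggcggCAGaag
IGFBP7, exon 1 of 5, arginine to glycine, chr4:57976272-57976298, minus strand: ggcggcgccggcAGGgggtactgcgcg
IGFBP7, exon 1 of 5, lysine to arginine, chr4:57976221-57976247, minus strand: cgcaagaggcggAAGggtaaagccggg
BLCAP, exon 2 of 2, tyrosine to cysteine and glutamine to arginine, chr20:36147547-36147576, minus strand: atgTATtgcctcCAGtggctgctgcccgtc
BLCAP, exon 2 of 2, lysine to arginine, chr20:36147520-36147546, minus strand: ctcctcatccccAAGcccctcaacccc

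The base before the edited adenosine was never G in these 11 sites, and was A in 5, C in 4 and T in 2, while the base after it was G in 7, T in 3 and A in 1. The sites of FLNA, COPA and NEIL1 lay close to an intron. The FLNA adenosine was 1 base from the last base of its exon, that of COPA was 6 bases from the last base, and that of NEIL1 was 6 bases from the first. Editing of AZIN1 replaces a serine by a glycine and that of CYFIP2 a lysine by a glutamate, and their sequences are not shown.

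The targeted gene checked the labels first. ADAR was 54.8 RPKM in control against 15.4 in KD by RNA-seq, and 40.7 and 46.8 in the control columns against 15.1 and 15.1 in the KD columns of PARS-seq. In Ribo-seq it was 43.6 and 55.5 in control against 8.73 and 44.03 in KD, so that Ribo-seq KD replicate 2 stood closer to the controls than to the other KD library. Ribo-seq replicates 1 and 2 stood far apart in both conditions, with an SD over 10882 genes of 1.23 (control) and 1.10 (KD) on the log2 scale for replicate 1 minus replicate 2, against 0.55 and 0.56 for KD minus control within a number. The label of the line went against its markers. All 10 hepatocyte markers examined (ALB, AFP, APOA1, APOB, TTR, SERPINA1, FGB, TF, HNF4A and GPC3) stayed under 1 RPKM in every column, and their summed level was 0.0997 to 0.558 in control against 0.0730 to 0.942 in KD. Of 7 markers of leukocytes, fibroblasts and endothelium, COL1A1 (9.75 to 54.7) and CD68 (1.48 to 22.7) were above 1 in every column, PDGFRB was 0.339 to 2.74, and PTPRC, COL1A2, PECAM1 and CDH5 stayed under 1. The cells are therefore called cells labelled HepG2, and the reason was not tested. In such bulk samples, fewer cells with a transcript and less of it per cell cannot be told apart.

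Of the 9 genes, 7 were at or above 1 RPKM in all 10 columns, and their order was broadly shared by the assays. In RNA-seq of control cells FLNA was highest at 290.0 RPKM, followed by IGFBP7 at 195, COPA at 72.3, BLCAP at 26.3, AZIN1 at 14.5, CDK13 at 10.1 and COG3 at 2.20. In Ribo-seq of control cells IGFBP7 (111 to 149), FLNA (78.6 to 174) and COPA (27.7 to 158) overlapped each other, and were followed by AZIN1 (18.3 to 27.7), whose higher library equalled the lower one of COPA to 3 digits, and then by BLCAP (13.4 to 16.6), CDK13 (7.06 to 9.84) and COG3 (2.16 to 4.37). In the PARS-seq control columns IGFBP7 was first at 140.6 and 141, followed by FLNA (68.5 and 75.1), AZIN1 (57.4 and 68.9) and COPA (49.0 and 66.9), where AZIN1 overlapped both of the others and FLNA lay above COPA. CYFIP2 was close to absent and NEIL1 was low in every assay.

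**Figure D1:**
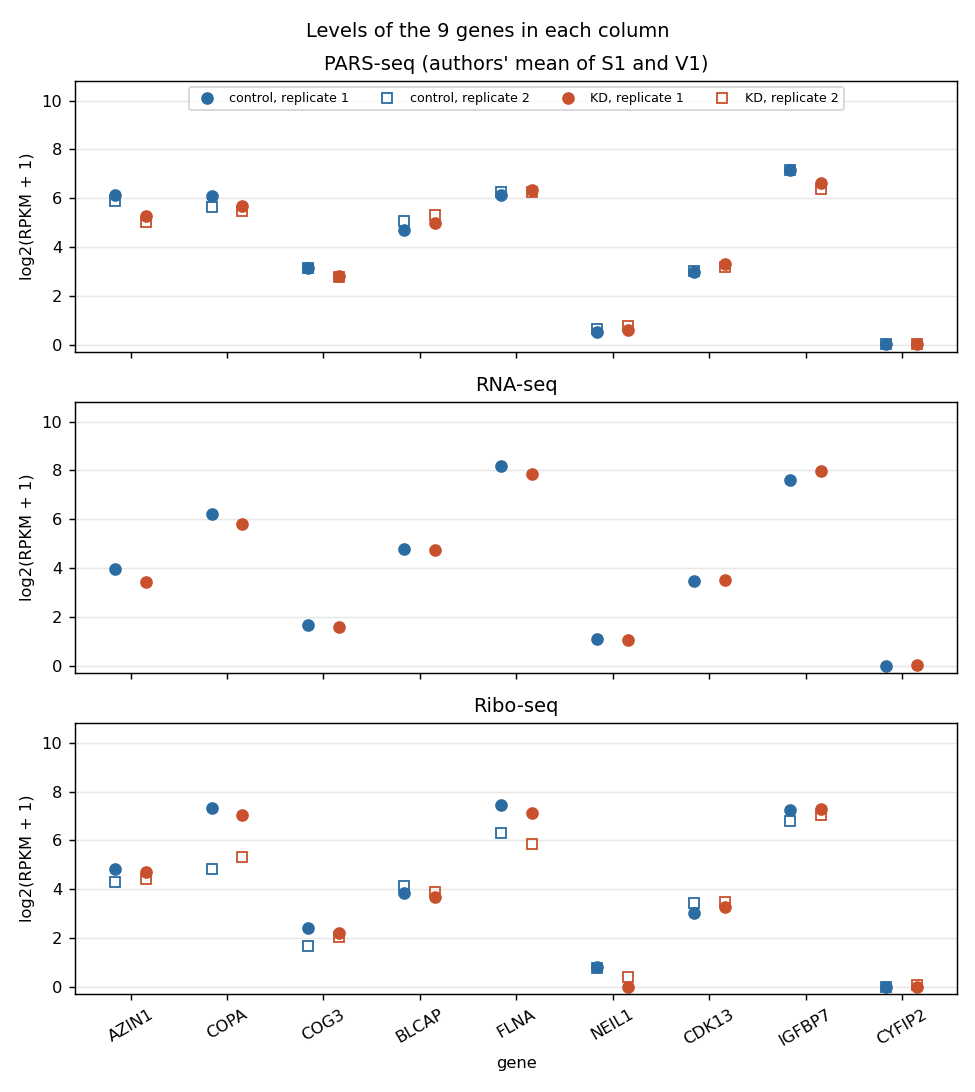
Level of each of the 9 genes as log2(RPKM + 1) in PARS-seq, RNA-seq and Ribo-seq. Each point is 1 column, blue for control and orange for KD, with filled circles for replicate 1 and open squares for replicate 2. AZIN1 and IGFBP7 lie lower in KD than in control in PARS-seq, and COPA and FLNA lie apart between the Ribo-seq replicates.

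AZIN1, the antizyme inhibitor that binds antizyme and so protects ornithine decarboxylase, was lower in KD in both assays of RNA. The PARS-seq columns held 68.9 and 57.4 RPKM in control against 37.8 and 31.8 in KD, with both KD columns below both control columns and a mean of 0.559 times the control on the scale of log2(RPKM + 1). RNA-seq gave 14.5 in control against 9.66 in KD, from 2562 and 1269 reads, a ratio of 0.668 with a 95% exact counting interval of 0.624 to 0.715. The Ribo-seq groups overlapped, with 27.7 and 18.3 in control against 24.7 and 20.4 in KD (log2 change of −0.01 ± 0.46 (SE), limma, adjusted p = 1.00).

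Relative to RNA-seq, AZIN1 was among the genes with high values in the other 2 assays. Its ratio of Ribo-seq to RNA-seq RPKM was 1.92 and 1.27 in control against 2.56 and 2.11 in KD, at the percentiles 80.5, 79.6, 85.2 and 84.5 of all genes in these libraries. Ribo-seq over RNA-seq in KD divided by the same in control, here taken from RPKM per replicate number in the manner of the study's translation efficiency ratio, which used normalized read counts, was 1.34 for replicate 1 and 1.66 for replicate 2. These double ratios share the single RNA-seq library of each condition, while the Ribo-seq ratios alone were 0.892 and 1.11, on opposite sides of 1. The corresponding interaction was 0.53 ± 0.77 on the log2 scale and did not pass the limma test (adjusted p = 1.00).

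IGFBP7, a secreted protein related to the IGF binding proteins, differed from control in opposite directions in different assays. In PARS-seq it was 140.6 and 141 RPKM in control against 97.0 and 82.1 in KD, lower in both KD columns, with a mean of 0.637 times the control. In RNA-seq it was 195 in control against 249.7 in KD, from 11395 and 10802 reads, a ratio of 1.28 with a counting interval of 1.24 to 1.31. In Ribo-seq it was 149 and 111 in control against 155 and 132 in KD, and the groups overlapped (0.15 ± 0.55, limma, adjusted p = 1.00). Its ratio of PARS-seq to RNA-seq was accordingly 0.720 and 0.721 in control against 0.388 and 0.329 in KD, at the percentiles 41.3, 41.8, 25.0 and 18.4 of all genes. On replicate 1 alone IGFBP7 was 0.53 lower on the log2 scale in PARS-seq, which is within 1.5-fold, and on replicate 2 alone it was 0.77 lower.

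AZIN1 and IGFBP7 were thus the 2 members, of 7 with a mean of at least 1 in PARS-seq, whose KD columns did not overlap the control columns and differed by more than 1.5-fold, while 16.6% of 11153 genes met the same rule 8.37% with the KD columns lower and 8.23% with them higher. Without regard to size, 4 of the 7 members did not overlap between conditions, 3 lower and 1 higher in KD, against 60.5% of all genes (27.1% lower and 33.3% higher). No test was made on these columns, which are authors' means.

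COG3 is a subunit of the conserved oligomeric Golgi complex, which tethers vesicles within the Golgi. In PARS-seq it was 7.87 and 7.68 RPKM in control against 6.07 and 5.73 in KD, both KD columns lower, with a mean of 0.786 times the control. RNA-seq gave 2.20 and 2.00 from 412 and 277 reads, a ratio of 0.906 whose counting interval (0.776 to 1.06) included 1. In Ribo-seq it rested on 20 to 35 reads per library, at 4.37 and 2.16 in control against 3.56 and 3.17 in KD (0.08 ± 0.46, limma, adjusted p = 1.00). Like AZIN1, COG3 had a high ratio of PARS-seq to RNA-seq, at 3.58 and 3.49 in control against 3.04 and 2.87 in KD.

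COPA, the alpha subunit of the COPI coat of Golgi vesicles, was 72.3 RPKM in control against 55.5 in KD by RNA-seq, from 20249 and 11512 reads, a ratio of 0.767 (counting interval 0.749 to 0.784). Its PARS-seq columns, 66.9 and 49.0 in control against 49.7 and 43.7 in KD, overlapped between the conditions. In Ribo-seq the replicates differed more than the conditions, with 158 and 27.7 in control against 129.8 and 38.5 in KD (0.09 ± 1.05, limma, adjusted p = 1.00). The estimate ran from −1.15 without control replicate 2 to 1.32 without control replicate 1.

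FLNA, filamin A, which cross-links actin filaments, was lower in KD in RNA-seq, while its Ribo-seq and PARS-seq columns overlapped between the conditions. RNA-seq gave 290.0 in control against 229.6 in KD, from 100514 and 59015 reads, a ratio of 0.792 (0.784 to 0.7997). Ribo-seq gave 174 and 78.6 in control against 136 and 56.5 in KD, with ratios of 0.785 (0.731 to 0.842) and 0.719 (0.669 to 0.773) between same-numbered libraries, where the intervals cover counting error. The replicates lay further apart than the conditions. The change of −0.41 ± 0.73 did not pass the test (limma, adjusted p = 1.00), and it was 0.16 without control replicate 1 and 0.22 without KD replicate 2. The PARS-seq columns were 68.5 and 75.1 in control against 78.6 and 74.9 in KD. FLNA had a low ratio of PARS-seq to RNA-seq, 0.236 and 0.259 in control, at the percentiles 13.0 and 14.1 of all genes.

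BLCAP, a short protein whose gene surrounds the imprinted gene NNAT, was 25.0 and 32.0 RPKM in control against 30.4 and 38.4 in KD by PARS-seq, which overlap. In RNA-seq it was 26.3 in control against 26.0 in KD, a ratio of 0.987 (counting interval 0.941 to 1.04). In Ribo-seq it was 13.4 and 16.6 in control against 11.7 and 13.7 in KD, from 50 to 207 reads (−0.21 ± 0.41, limma, adjusted p = 1.00). The counting of reads per gene, as described for all 3 assays, makes no use of strand, so that reads of genes on shared bases cannot be told apart, and in gene span, though not necessarily in counted bases, COPA, COG3, NEIL1, IGFBP7, AZIN1 and CYFIP2 also overlap other protein-coding genes. NNAT itself was 1.09 RPKM in control against 1.05 in KD in RNA-seq.

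CDK13, a kinase that with cyclin K phosphorylates RNA polymerase II, was 6.91 and 7.11 RPKM in control against 8.84 and 8.17 in KD by PARS-seq, the only member with both KD columns above both control columns among the 7. The difference was 1.19-fold. RNA-seq gave 10.1 and 10.4, a ratio of 1.03 (counting interval 0.974 to 1.09), and Ribo-seq 7.06 and 9.84 in control against 8.68 and 10.2 in KD (0.16 ± 0.41, limma, adjusted p = 1.00).

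NEIL1 and CYFIP2 gave little to compare. NEIL1, a DNA glycosylase that starts repair of oxidised bases, was 1.14 RPKM in control against 1.08 in KD by RNA-seq (121 and 85 reads) and 0.424 to 0.708 in the PARS-seq columns. Its Ribo-seq libraries held 2 and 6 reads in control against 0 and 2 in KD, which is at or under the 3 reads that a count of 0 allows in all but 1 library. CYFIP2, a subunit of the WAVE complex that drives actin branching, had 1 and 3 reads in RNA-seq and 0, 0, 0 and 1 in Ribo-seq. A difference could not be detected at this depth for either gene in Ribo-seq.

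**Figure D2:**
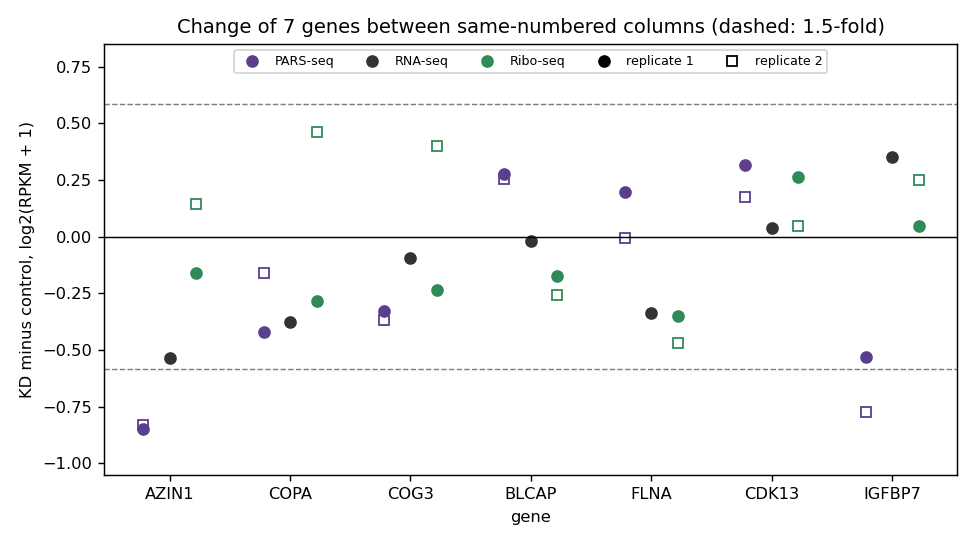
KD minus control on the scale of log2(RPKM + 1) for the 7 members with a mean of at least 1 RPKM over the 10 columns, between columns of the same replicate number. Purple is PARS-seq, black RNA-seq and green Ribo-seq, with filled circles for replicate 1, open squares for replicate 2 and dashed lines at 1.5-fold. AZIN1 in PARS-seq lies past the lower line in both replicates and IGFBP7 in replicate 2, and all RNA-seq and Ribo-seq points lie between the lines.

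Over the members as a whole, none of 8 with a mean of at least 1 RPKM passed 1.5-fold in RNA-seq, where 9.13% of 10946 genes did (4.66% lower and 4.47% higher). None of 7 was called in Ribo-seq and none of 7 in the test of Ribo-seq beyond RNA-seq, both at a background of 0% (limma with Benjamini-Hochberg adjustment over 10882 and 11165 genes, with 43 and 4 genes at an unadjusted p under 0.05). The precision was low, since in simulated data 51% of genes changed 4-fold and 96% of those changed 8-fold were recovered in Ribo-seq. The changed genes were drawn from those with more reads, at the median spread of such genes, so that genes with few reads, such as COG3, were not covered. In Ribo-seq beyond RNA-seq 0% of either was recovered. The simulated spread there included the difference between the 2 assays, so that this value does not measure the precision of that test. The median gene changed by 0.04 in PARS-seq, −0.01 in RNA-seq and 0.08 in Ribo-seq on the log2 scale, so that scaling each column to the median ratio turned no member's direction in PARS-seq, RNA-seq or Ribo-seq. In Ribo-seq beyond RNA-seq it turned that of CDK13, from 0.12 to −0.01.

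**Figure D3:**
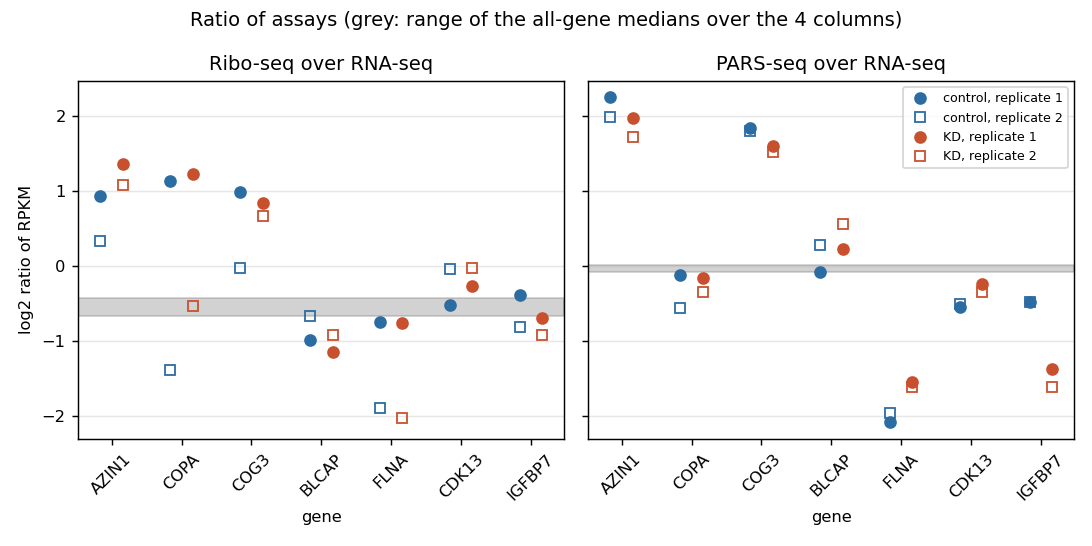
Log2 ratio of Ribo-seq to RNA-seq (left) and of PARS-seq to RNA-seq (right) for 7 members, blue for control, orange for KD, with filled circles for replicate 1 and open squares for replicate 2. The grey band is the range of the medians over all genes. AZIN1 and COG3 lie above the band in PARS-seq over RNA-seq and FLNA below it, IGFBP7 lies lower in KD than in control there, and COPA differs between replicates in Ribo-seq over RNA-seq.

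COPA was the only member followed base by base, since the lists used here paired no other member's symbol with a UCSC transcript identifier (uc001fvv.4, 5666 bases). The list that gave this identifier is the study's own list from the same libraries. It holds only transcripts whose share of paired bases moved in the same direction in both replicates and past a set difference. S1 read starts on it, scaled to 1000000 on the 4722 transcripts listed in all 8 libraries, were 255.7 and 165 in control against 133 and 135 in KD. V1 read starts were 349 and 231 in control against 186 and 204 in KD. Both KD libraries lay below both controls for each nuclease, while control replicate 1 was the highest library with either of them. The changes did not pass the limma test without a replicate term, at −0.62 ± 0.26 (adjusted p = 0.0681) for S1 and −0.54 ± 0.34 (adjusted p = 0.392) for V1, where 20.1% of 4721 and 9.95% of 16885 transcripts were called. A replicate term changed the call for S1, as given in the closing section. These were 18.6% lower and 1.48% higher for S1, and 7.9% lower and 2.05% higher for V1. The median transcript changed by −0.36 for S1 and −0.14 for V1, and with TMM scaling by 0.005 and 0.05, which turned the split of calls from 70 higher and 878 lower to 306 and 438 for S1, and from 346 and 1334 to 682 and 994 for V1. With TMM scaling the change of COPA was −0.25 (adjusted p = 0.477) for S1 and −0.35 (adjusted p = 0.367) for V1. A single transcript held 26.0% to 59.4% of the read starts of a library, least in S1 control replicate 1. With the totals taken without it the change of COPA was −0.26 for S1 and −0.27 for V1. Leaving out a control library leaves 1 in that group, so that only the size is given here. The change of S1 was −0.30 without S1 control replicate 1 and −0.93 without S1 control replicate 2. That of V1 was −0.24 without V1 control replicate 1 and −0.83 without V1 control replicate 2.

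The share of paired bases in COPA followed from a two-sided Fisher's exact test at each base, which called a base double-stranded (DS) where V1 starts were in excess and single-stranded (SS) where S1 starts were. In control, 984 bases were DS and 441 SS in replicate 1, and 793 and 391 in replicate 2, a share DS/(DS + SS) of 0.691 and 0.670. In KD, 808 bases were DS and 462 SS in replicate 1, and 641 and 394 in replicate 2, a share of 0.636 and 0.619. The share was thus 0.680 ± 0.015 (SD, n = 2) in control against 0.628 ± 0.012 (SD, n = 2) in KD, a difference of −0.052, and the conditions did not overlap. A lower share in both same-numbered pairs was found in 74% of 4476 transcripts, with a median difference of −0.070 in pair 1 and −0.036 in pair 2. These transcripts were not chosen by their share, whereas COPA came from a list filtered on a change of this share in both replicates. That both of its pairs moved in the same direction was therefore largely set by the choice, which also bears on the stretches described below. When all libraries were thinned to the smallest total, the COPA difference became 0.002.

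With the transcript divided into 10 equal stretches, both KD profiles lay below both control profiles in 6 of the first 9 and overlapped them in the other 3. Of 571 bases classified in all 4 profiles, 350 were DS and 220 were SS throughout. There were 0 bases that were DS in both control profiles and SS in both KD profiles, and 0 with the opposite change. CorDiff, the study's score, which is above 0 where replicates resemble each other more than they resemble the other condition, was 0.0096 for S1 and −0.081 for V1 in COPA. Scores above 0 were found in 41.4% of 4720 transcripts for S1 and 9.36% for V1, and 4.6% had both above 0. The S1 value was −0.0053 with Spearman's correlation and the V1 value 0.0042 with differently numbered libraries compared, so that neither sign held.

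**Figure D4:**
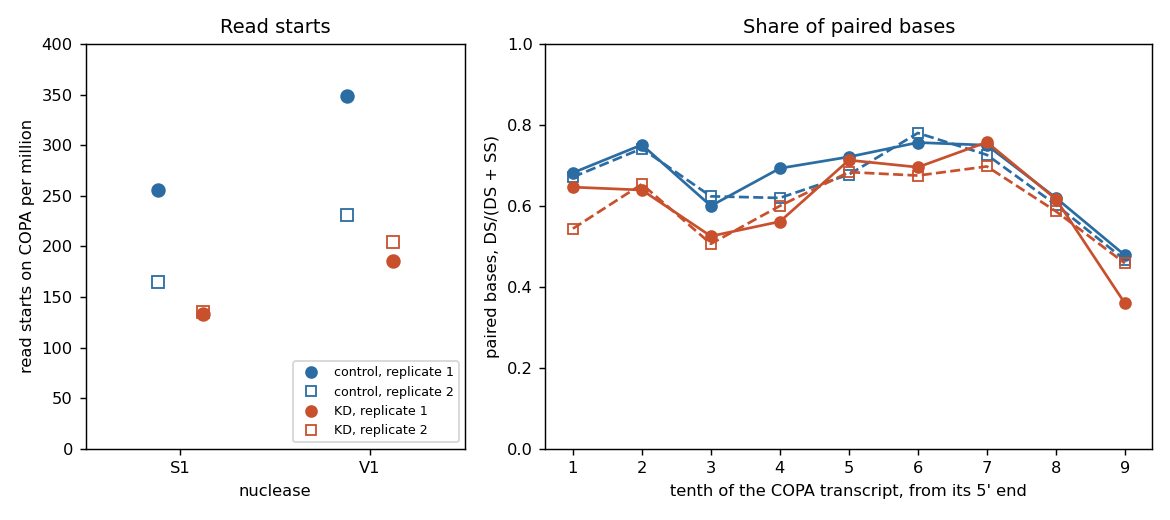
Read starts on the COPA transcript, scaled to 1000000 per library, by nuclease (left), and the share of paired bases, DS/(DS + SS), in the first 9 of 10 equal stretches of the transcript (right). Blue is control and orange KD, with filled circles and solid lines for replicate 1 and open squares and dashed lines for replicate 2. The KD libraries lie below the controls on the left, and the last stretch, with 2 to 5 classified bases, is not drawn.

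The genes that act with the members were followed by lists. Among 8 other coatomer subunits, 1 was lower past 1.5-fold in PARS-seq (8.37% of all genes) and the same 1 in RNA-seq (4.66% of all genes), the row COPZ2;MIR152, whose levels were 16.7 and 17.5 in control against 7.66 and 10.01 in KD in PARS-seq and 23.0 and 13.8 in RNA-seq. The coatomer median was −0.28 in PARS-seq and −0.28 in RNA-seq on the log2 scale, beside 0.04 and −0.01 for all genes, while in Ribo-seq it was 0.13 beside 0.08. Of 7 other COG subunits, 1 was lower in PARS-seq, again beside 8.37% of all genes, namely COG6 (6.19 and 3.74 in control, 3.13 and 2.37 in KD), and 0 passed 1.5-fold in RNA-seq, beside 9.13% of all genes.

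In the polyamine pathway, where AZIN1 acts, 9 of 11 genes were measured above the filter. SAT1, which acetylates spermidine and spermine for export, was 532 and 494.5 RPKM in control against 162 and 102 in KD by PARS-seq, and 21.8 and 13.6 by RNA-seq. OAZ1, the antizyme that AZIN1 binds, was 318 and 248 in control against 128 and 163 in KD by PARS-seq and 678 and 576 by RNA-seq, where it stayed within 1.5-fold. These were the 2 genes of the list lower past 1.5-fold in PARS-seq, and 0 were higher, beside 8.37% and 8.23% of all genes. ODC1, the decarboxylase that the pathway protects or degrades, did not pass the rule, with 138 and 113 in control against 176 and 189.9 in KD in its row ODC1;SNORA80B.

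Of 10 other DNA glycosylases, 2 were higher and 1 lower in PARS-seq, beside 8.23% and 8.37% of all genes. UNG was 25.9 and 34.0 in control against 47.4 and 55.5 in KD, NEIL2 was 0.647 and 1.02 in control against 1.71 and 2.62 in KD, and NEIL3 was 17.3 and 20.01 in control against 10.9 and 10.2 in KD. In the WAVE complex, 2 of 7 genes were lower in PARS-seq, beside 8.37% of all genes, NCKAP1 (187 and 126 in control, 105 and 58.0 in KD) and ABI1 (22.1 and 19.8 in control, 12.1 and 10.9 in KD). CYFIP1, the paralogue of CYFIP2, was present at 22.1 RPKM in control against 18.7 in KD in RNA-seq.

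Among the IGF binding proteins 3 of 6 passed the filter in PARS-seq, and their median was −0.52 beside 0.04 for all genes, while 0 of the 3 passed the rule, which 16.6% of all genes did. IGFBP3 was 49.5 and 40.7 in control against 33.1 and 27.9 in KD, and IGFBP6 was 3.39 and 3.76 in control against 1.94 and 2.47 in KD. In RNA-seq the list's median was −0.10 over 4 genes, beside −0.01 for all genes. These genes went in both directions, and the largest change was that of IGFBP3, at 59.8 in control against 40.5 in KD. The elongation kinases and cyclins around CDK13 had 0 of 5 genes called in any assay, beside 16.6% of all genes in PARS-seq, 9.13% in RNA-seq and 0% in Ribo-seq. The largest changes were in RNA-seq for CDK9 (43.0 in control, 59.3 in KD) and CCNK (39.1 and 52.0). Of the filamin list, FLNC alone passed, in RNA-seq, at 3.10 in control against 5.39 in KD, 1 of 4 genes beside 4.47% of all genes higher.

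Among 21 other genes with known recoding sites, 9 passed the filter in PARS-seq and 10 in RNA-seq and in Ribo-seq, and 0 were called in any of the 3, beside the same 16.6%, 9.13% and 0% of all genes. The largest change in this list was in Ribo-seq, for SRP9 (4.34 and 18.2 in control, 12.3 and 28.0 in KD). Of the editing enzymes, ADARB1 was 5.75 and 8.89 in control against 13.8 and 16.9 in KD in PARS-seq, past 1.5-fold, and 30.2 and 33.2 in RNA-seq. Without a replicate term no gene of any list was called in Ribo-seq or in Ribo-seq beyond RNA-seq. With such a term ADAR, in the list of editing enzymes, was among the genes called in Ribo-seq.

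The profile of each member over the 10 columns was also compared with that of every other gene by Pearson's correlation of log2(RPKM + 1), as a description over columns that share libraries and assays. Among 11370 genes the closest were TMEM60 for AZIN1 (r = 0.994), SEC22B for COG3 (0.993), NR4A1 for FLNA (0.990), the row MEGF6;MIR551A for BLCAP (0.989), MRPL16 for COPA (0.983), HAGHL for CDK13 (0.959) and LOC285696 for IGFBP7 (0.944).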

How the data were processed

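RNA from cells labelled HepG2 was compared between siRNA against ADAR1 and scrambled siRNA. The authors aligned the reads of all 3 assays to hg19 with Bowtie2 in local mode, counted uniquely aligned reads with coverageBed against the RefSeq annotation, and deposited the resulting RPKM. The PARS-seq RPKM columns are the authors' means of an S1 and a V1 library. The per-base tables hold the number of read starts at each base of UCSC transcripts, deposited without normalization. Cutadapt is named in the submitters' processing notes, with no version.

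RPKM values were used as log2(RPKM + 1) where the mean over the columns compared reached 1. Ribo-seq was tested with limma 3.58.1 (R 4.3.3) with a mean trend, without a replicate term, over all genes with Benjamini-Hochberg adjustment at 0.05. The interaction fit took the single RNA-seq library per condition to vary like the Ribo-seq libraries. PARS-seq and RNA-seq had no test, and a gene was called past 1.5-fold and, in PARS-seq, without overlap of the columns. Whole reads behind RNA-seq and Ribo-seq values were recovered for 11202 of 11203 genes above 0 in all 6 columns, within 0.01 read, and sum to 39341913 and 29166510 in RNA-seq and to 732015 to 1826471 in Ribo-seq. The 95% exact intervals and the floor of 3 reads cover counting error only. Read starts per transcript were tested with limma on log2 values scaled by the total over transcripts listed in all 4 libraries, with 0.5 added, leaving out transcripts short of 15 read starts in sum or of the equivalent of 10, in a library of median size, in at least 2 libraries. Library totals were 96618292 to 214584779 read starts, and S1 control replicate 1 lists 4722 transcripts. Background transcripts for the paired share were longer than 100 bases with over 256 read starts in each library and at least 20 classified bases in each profile. Each test was tried on simulated data with 200 changed genes. Scripts used Python 3.11.15, numpy 2.4.6, pandas 2.3.3, scipy 1.17.1 and matplotlib 3.10.9.

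The members and the gene lists were chosen with earlier results of these data known. Named were all 9 members, ADAR, from each list the genes called or at most the 2 with the largest change, and the gene most like each member, except that 1 gene of a list that met the rule is not reported here. NNAT, ODC1 and CYFIP1 were added for their place beside a member, after their values were seen. Gene symbols joined by a semicolon are single rows of the table. The study counts its replicates as biological.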

Additional observations from a re-analysis of the deposited data

Results flagged for a closer look

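BLCAP and IGFBP7 differed from control in opposite directions in 2 assays, with both replicates of each assay on opposite sides of 0. The difference between the assays was not tested, and the PARS-seq columns are authors' means.

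IGFBP7 was lower in KD in both PARS-seq replicates, by 0.53 and 0.77 on the log2 scale, and higher in both Ribo-seq replicates, by 0.05 and 0.25. The Ribo-seq change minus the PARS-seq change was 0.80, and the Ribo-seq change of 0.15 became −0.063 without control replicate 2. BLCAP was higher in KD in both PARS-seq replicates, by 0.28 and 0.25, and lower in both Ribo-seq replicates, at −0.17 and −0.26. The counting intervals of its Ribo-seq ratios, 0.596 to 1.30 and 0.657 to 1.04, both included 1. The Ribo-seq change minus the PARS-seq change was −0.48, and the Ribo-seq change of −0.21 became −0.36 without control replicate 1 and −0.068 without control replicate 2. No group held 4 samples, so that no sample could be compared with the spread of its own group.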

How the results depend on the processing

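With 2 libraries per group, the calls depended on single libraries, and the cause was not tested. The 2 members called in PARS-seq became 0 at 2-fold and ranged from 1 to 2 on 1 replicate. The 0 genes called in Ribo-seq became 0 to 24 when 1 library was left out, with 24 without KD replicate 2, and no member among them. The 0 genes of Ribo-seq beyond RNA-seq became 2257 with no filter on low values. S1 calls (948) ranged from 239 to 1833 and V1 calls (1680) from 507 to 1611 when 1 library was left out, and V1 calls were 380 on transcripts listed in all 8 libraries. The COPA paired share difference was −0.073 against totals of the transcript, 0.0021 after thinning and −0.057 without the transcript with most read starts, an alternative added after the data were seen. COPA CorDiff for S1 was 0.128 between differently numbered libraries and −0.0053 with Spearman's correlation, and for V1 0.0042 and −0.030.

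The replicate numbers are not stated to share a batch, though replicate 1 minus 2 correlated between conditions over genes (0.81 in Ribo-seq, 0.66 in PARS-seq, 0.47 for S1, 0.39 for V1). With the replicate block 143 genes were called in Ribo-seq, ADAR among them (adjusted p = 0.0238) and no member, 1 in Ribo-seq beyond RNA-seq, 1043 for S1 and 1748 for V1. Under the block the S1 change of COPA, −0.62 ± 0.22, passed the limma test (adjusted p = 0.0302), which it did not pass without the block.

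Leaving out 1 library moved members' Ribo-seq changes across 0, between −0.29 and 0.28 for AZIN1, −1.15 and 1.32 for COPA, −0.30 and 0.46 for COG3, −1.04 and 0.22 for FLNA, −0.058 and 0.37 for CDK13 and −0.063 and 0.36 for IGFBP7, while BLCAP stayed between −0.36 and −0.068. Beyond RNA-seq the ranges were −0.77 to 1.70 for COPA, −0.20 to 0.56 for COG3, −0.70 to 0.56 for FLNA, −0.10 to 0.33 for CDK13 and −0.42 to 0.00999 for IGFBP7, with AZIN1 between 0.24 and 0.81 and BLCAP between −0.34 and −0.050, and scaling to the median ratio put CDK13 at −0.012. S1 changes of COPA ranged from −0.93 (without control replicate 2, which leaves 1 control library) to −0.30. Limma on recovered reads, added after the data were seen, called 0 genes in both Ribo-seq comparisons.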
